A study of Mus musculus with 20 samples.

Results

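The 39 mouse genes described here are listed as type I interferon response genes, which cells switch on after they sense interferon. They were taken by name, as a list of interferon-stimulated genes, from the 54532 genes of the deposited count table, and each of the 39 names matched a row. The rule that names them uses no expression value, but the list was chosen with earlier results of these data known. By role they comprise 4 members of the IFIT family, 3 genes of the ubiquitin-like ISG15 system, 3 of the oligoadenylate synthetase (OAS) family, 5 nucleic acid sensors, 6 effectors that act on nucleotides or restrict viruses, 4 transcription factors, 3 genes of the ADP-ribosylation group with Dtx3l, 4 interferon-induced GTPases and 7 other induced genes.

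RNA-seq libraries came from mouse brain, 1 hemisphere per library, after poly(A) selection. There were 5 libraries of each of 4 genotypes, namely wild-type controls (WT), a knockout of Glb1 (Glb1KO), a knockout of Neu3 (Neu3KO) and the knockout of both genes (DKO). Glb1 encodes the lysosomal beta-galactosidase whose loss causes GM1 gangliosidosis, and Neu3 encodes a membrane sialidase that removes sialic acid from gangliosides. The series' stated design is the comparison of DKO with control mice. Every group carries the same source note, which gives the Jackson Laboratory as the supplier of healthy mice. The labels name no treatment, age, strain or construct of the knockout alleles, and the hemisphere holds all of its cell types mixed. They do not say that the 5 libraries of a genotype are different animals, so p-values measure the spread between these libraries.

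In the pathway these genes belong to, secreted interferons bind the receptor subunits Ifnar1 and Ifnar2 and activate the kinases Jak1 and Tyk2. The kinases phosphorylate Stat proteins such as Stat2, which joins Irf9 in a complex that binds the interferon-stimulated response element (ISRE) in target promoters. Their products block viral RNA and proteins, sense foreign nucleic acid or feed back on the pathway, and in brain microglia, astrocytes and neurons can all express them.

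Library totals ran from 15162311 to 25145806 counted reads. Glb1 stood at 20.2 ± 1.32 CPM (counts scaled to library size, SD, n = 5) in WT, 3.38 ± 0.903 in Glb1KO, 20.5 ± 1.34 in Neu3KO and 4 ± 1.07 in DKO, so the labels of both Glb1-deficient groups matched their reads. Neu3 read 3.85 ± 1.22 CPM in WT, 4.06 ± 0.621 in Glb1KO, 2.86 ± 0.409 in Neu3KO and 2.98 ± 0.826 in DKO, and its reads did not pass the test in Neu3KO against WT (edgeR quasi-likelihood adjusted p = 0.823) or in DKO against WT (edgeR quasi-likelihood adjusted p = 0.197), so they do not check those labels, and Neu3 status is given as labelled. WT replicate 1 stood apart from its group over all genes: its counts differed from those of the other WT libraries by a chi-square per gene of 21.85 to 29.76, against 3.44 to 5.51 among the other 4 and at most 14.18 within another genotype. The counts of called interferon response genes in the comparisons that include WT are given with and without it. Each library identifier begins with a letter. All 5 WT identifiers begin with E, those of Glb1KO with E in 2 cases and L in 3, those of Neu3KO with E in 1 case and W in 4, and those of DKO with E in 2 cases and W in 3. What the letters stand for is not given in the sources used here, and where a result changes with them, that change is given with it.

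The promoters of the 4 genes with the smallest adjusted p in DKO against WT are printed here, because the element that the Stat and Irf proteins bind can be read in them. The ISRE core was searched as GAAANNGAAA on both strands in RefSeq windows from 250 bases before to 50 bases after a gene start (build GRCm38.p6), and the capitals mark each match or run of overlapping matches. Irgm1 lies on the minus strand at chr11:48871371-48871670, Ifit3 on the plus strand at chr19:34583279-34583578, Gbp2 on the plus strand at chr3:142620413-142620712 and Bst2 on the minus strand at chr8:71537423-71537722, each written 5′ to 3′ on the gene's own strand. The stretch of Isg15 (minus strand, chr4:156200845-156200926) is shown beside them as a gene with the same element and no called change, chosen after its values were seen.
Irgm1: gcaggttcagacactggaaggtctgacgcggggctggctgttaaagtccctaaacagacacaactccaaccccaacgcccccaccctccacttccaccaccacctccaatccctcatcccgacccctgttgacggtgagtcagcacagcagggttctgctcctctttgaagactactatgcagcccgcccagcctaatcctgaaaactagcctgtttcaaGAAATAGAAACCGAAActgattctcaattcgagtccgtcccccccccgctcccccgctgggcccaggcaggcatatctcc
Ifit3: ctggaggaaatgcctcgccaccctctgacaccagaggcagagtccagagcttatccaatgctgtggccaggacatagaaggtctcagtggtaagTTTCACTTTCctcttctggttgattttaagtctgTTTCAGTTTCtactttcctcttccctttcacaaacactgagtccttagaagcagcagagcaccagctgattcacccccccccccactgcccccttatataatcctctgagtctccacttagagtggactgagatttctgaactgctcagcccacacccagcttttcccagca
Gbp2: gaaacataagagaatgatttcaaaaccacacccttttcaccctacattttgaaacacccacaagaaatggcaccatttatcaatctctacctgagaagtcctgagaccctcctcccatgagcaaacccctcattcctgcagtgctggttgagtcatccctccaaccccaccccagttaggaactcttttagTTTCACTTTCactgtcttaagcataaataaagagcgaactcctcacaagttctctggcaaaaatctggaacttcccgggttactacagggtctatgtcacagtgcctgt
Bst2: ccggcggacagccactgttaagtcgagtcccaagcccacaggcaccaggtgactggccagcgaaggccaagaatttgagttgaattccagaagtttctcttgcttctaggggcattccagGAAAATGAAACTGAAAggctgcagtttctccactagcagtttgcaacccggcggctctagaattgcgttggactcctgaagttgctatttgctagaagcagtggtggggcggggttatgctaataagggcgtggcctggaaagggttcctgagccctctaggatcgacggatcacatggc
Isg15: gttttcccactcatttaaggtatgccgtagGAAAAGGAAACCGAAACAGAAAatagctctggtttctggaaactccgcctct

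RefSeq windows were matched for 30 of the 39 genes. The ISRE core was found in 17 of these 30 genes (56.7%), against 1079 of 27025 genes with a window (3.99%). A shorter core, GAAANNGAA, which every ISRE match also contains, was found in 18 of the 30 (60%) against 9.76% of all genes. The core TTCNNNGAA, to which Stat dimers are known to bind, was found in 9 of the 30 (30%) against 9.55%. Of the 22 matched genes that rose in DKO against WT, 16 held the ISRE core, and of the 8 that did not pass the test 1 did, which was Isg15. The 16 include both Ifit3 and Ifit3b, whose transcripts share sequence. No window was matched for Usp18, Parp9, Parp14, Ifi27l2a and Rtp4, which rose, or for Oas2, Dhx58, Zbp1 and Ifi27, which did not pass. A match describes the letters of a window and is not a measured binding site.

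All 39 genes are annotated as protein-coding, and all passed the filter on low counts, which left 18336 genes for testing. Zbp1 passed that filter only with the DKO libraries, since 2 of the 15 libraries outside DKO reached the 0.585 CPM needed in 5 libraries. Per length, the highest levels over all 20 libraries in FPKM, which scales reads to gene length and depth, were those of Ifi27 at 13.8, Ifitm3 at 12.4, Stat2 at 6.67, Ifit3 at 6.43 and Cmpk2 at 5.86 FPKM. The lowest were Ifi44 at 0.0887 FPKM and Zbp1 at 0.124 FPKM. Beside the gene pairs named with their families, further members share some of their 50-base windows with other genes. The shares were 23.8% for Herc6, 13.6% for Rtp4 and 12.3% for Igtp, with Irgm2 in the case of Igtp. For Ifi35, Sp100 and Ifitm3 they were 10.7%, 10.2% and 10%, and smaller shares occurred in other members. Such sharing makes their levels less certain.

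In DKO against WT, 27 of the 39 genes rose and none fell at an adjusted p under 0.05 (edgeR quasi-likelihood test, Benjamini-Hochberg over all 18336 genes). Of all tested genes, 29% passed in that comparison, 14% higher and 15.1% lower. The median log2 fold change over the 39 genes was 0.89, with a range of -0.08 to 1.81, and over all tested genes it was -0.003. Every DKO library lay above every WT library for 21 of the 39 genes, against 9.28% of all tested genes. For 11 genes, namely Ifit2, Ifit3, Oasl2, Eif2ak2, Bst2, Ifitm3, Parp9, Parp14, Gbp2, Gbp3 and Irgm1, the 5 DKO libraries lay above all 15 other libraries, against 4.71% of all tested genes. With the identifier letter as a term in the fit 22 of the 27 kept their call, and among libraries whose identifiers start with E 21 did. Markers of microglia and astrocytes rose in the same DKO libraries, and in bulk RNA a change in the number of cells of a type and in the RNA per cell cannot be told apart.

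**Figure D1:**
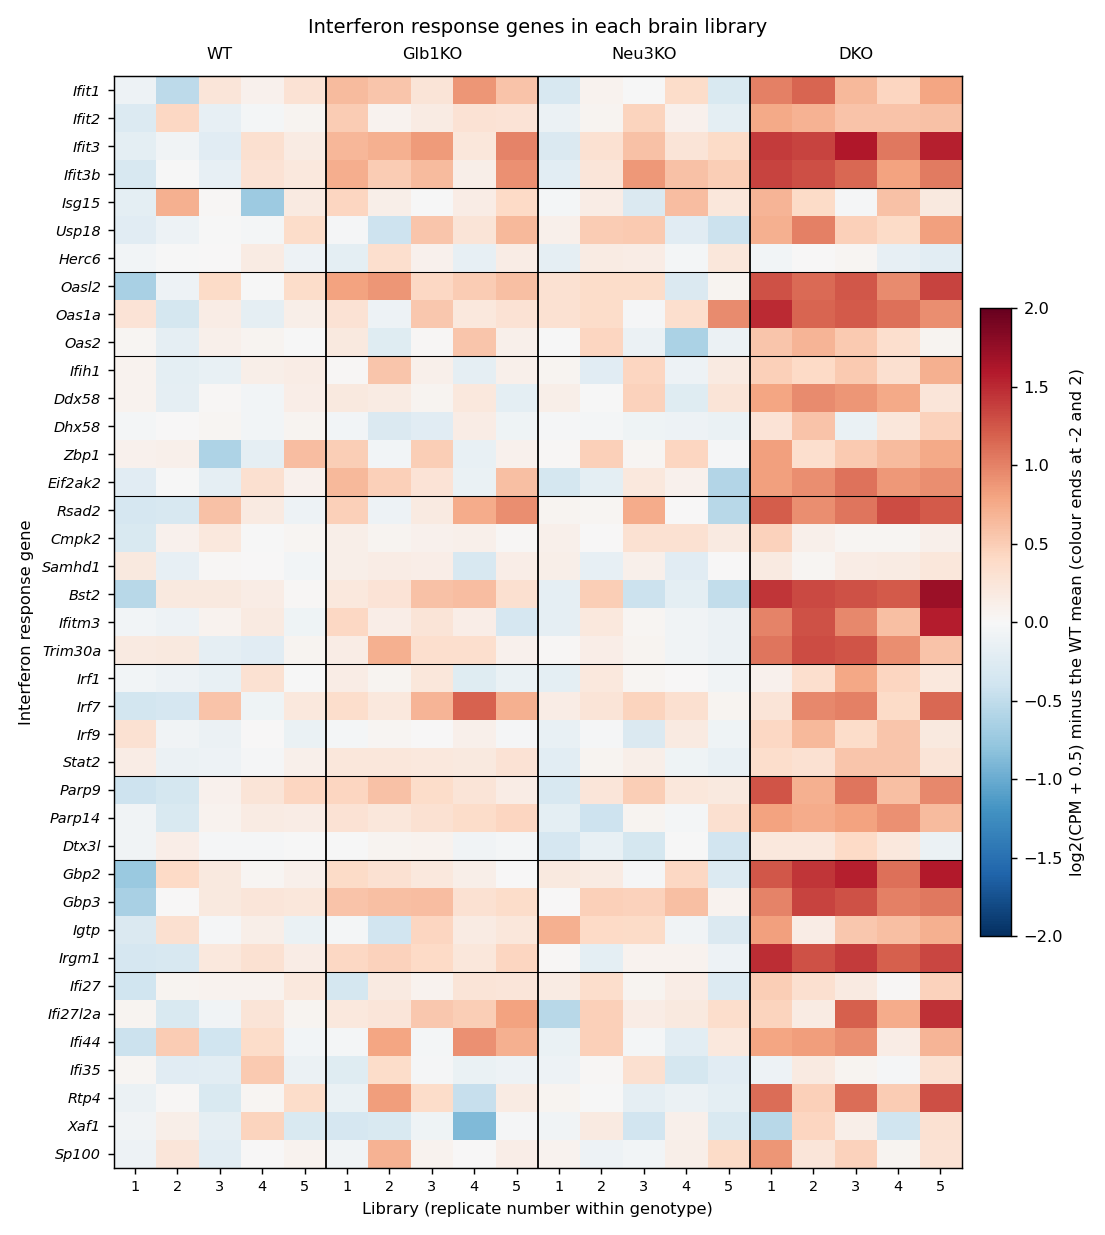
Heat map of the 39 interferon response genes (rows, ordered by role, horizontal lines between roles) in the 20 libraries (columns, by genotype), coloured by log2(CPM + 0.5) minus the WT mean. Averaged over the 39 genes, DKO spans 0.56 to 0.74, Glb1KO 0.19 to 0.28, Neu3KO -0.04 to 0.15 and WT -0.16 to 0.10.

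Averaged over the 39 genes on the log2(CPM + 0.5) scale and relative to the WT mean, the 5 DKO libraries lay at 0.74, 0.71, 0.74, 0.56 and 0.73. The Glb1KO libraries lay at 0.22, 0.25, 0.26, 0.19 and 0.28. The Neu3KO libraries lay at -0.04, 0.15, 0.14, 0.06 and -0.02, within the WT range apart from the 2 highest, and WT libraries at -0.16, -0.02, 0.00, 0.08 and 0.10. Across the heat map the DKO columns are the reddest, and DKO replicate 4 was the lowest DKO library in 13 of the 27 genes that rose. WT replicate 1, which stood apart over all genes, was the lowest WT library in 14 of those 27. Without WT replicate 1 the count was 25, with Irf1 and Ifi44 lost, where 26.1% of all tested genes passed. Without any other library between 25 and 28 genes passed the test.

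The IFIT proteins bind foreign RNA and hinder its translation. All 4 of their genes, which lie together on chromosome 19 (GRCm38) with gaps of 7.11, 19.2 and 27.5 kb, rose in DKO against WT. Ifit3 (ENSMUSG00000074896, chr19:34583531-34588731, GRCm38) read 5.85, 6.37, 5.72, 8.57 and 7.65 CPM in the 5 WT libraries and 18.7, 18, 21.5, 14.6 and 20.9 CPM in the 5 DKO libraries. It read 11, 11.3, 12.6, 7.95 and 13.9 CPM in Glb1KO and 5.41, 8.46, 10.4, 8.21 and 8.91 CPM in Neu3KO. The 5 DKO libraries were the highest of all 20, and the Glb1KO libraries, with 1 exception at 7.95 CPM, lay above every WT library. Ifit3 rose in DKO from 6.83 ± 1.24 to 18.7 ± 2.72 CPM (SD, n = 5), a log2 fold change of 1.46 (SE 0.15, 2.74-fold, edgeR adjusted p = 7.52e-09). Ifit3b rose by a log2 of 1.23 (2.34-fold), Ifit1 by 0.90 and Ifit2 by 0.64, each with an edgeR adjusted p of 0.000394 or less. Of the 50-base windows of the Ifit3 transcript, 51.2% also occur in another gene, Ifit3b, so reads of the 2 genes may have been split or lost in the authors' counting.

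Isg15 is the ubiquitin-like protein that is attached to other proteins, Usp18 removes it and damps interferon receptor signalling, and Herc6 is the mouse ligase for it. In WT, Isg15 (ENSMUSG00000035692, chr4:156199424-156200818, GRCm38) was counted at 1.11, 2.5, 1.37, 0.608 and 1.59 CPM, and in DKO at 2.45, 1.89, 1.31, 2.24 and 1.59 CPM. Glb1KO libraries had 1.99, 1.5, 1.32, 1.54 and 1.91 CPM and Neu3KO libraries 1.28, 1.54, 1, 2.31 and 1.65 CPM. The 4 genotypes overlap throughout, and the lowest and the highest library are both WT. Its mean was 1.43 ± 0.701 CPM in WT and 1.9 ± 0.463 CPM in DKO (SD, n = 5), and its log2 fold change of 0.39 (SE 0.29) did not pass the test (edgeR adjusted p = 0.329). The level of Usp18 (ENSMUSG00000030107, chr6:121245906-121270917, GRCm38) was 0.948, 1.09, 1.19, 1.16 and 1.7 CPM across WT and 2.28, 2.9, 1.86, 1.72 and 2.5 CPM across DKO. For Glb1KO the values were 1.17, 0.78, 2, 1.54 and 2.17 CPM, and for Neu3KO 1.32, 1.92, 1.95, 0.949 and 0.763 CPM. All 5 DKO libraries lay above the highest WT library, with 1.72 CPM in the lowest of them against 1.7 CPM. Usp18 rose in DKO from 1.22 ± 0.285 to 2.25 ± 0.476 CPM (SD, n = 5), a log2 fold change of 0.89 (SE 0.28, 1.85-fold, edgeR adjusted p = 0.0174). The Usp18 call ended without DKO replicate 2, at an edgeR adjusted p of 0.0508. Herc6 ranged from 7.22 to 10.7 CPM over the 20 libraries and had a log2 fold change of -0.08 in DKO against WT, the lowest of the 39 genes.

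The OAS enzymes make the second messenger that activates RNase L, while Oasl2 belongs to the same family. Oasl2 and Oas1a rose in DKO against WT and Oas2 did not pass the test. Oasl2 (ENSMUSG00000029561, chr5:114896936-114912234, GRCm38) read 1.84, 2.94, 4.29, 3.16 and 4.25 CPM in the 5 WT libraries and 8.43, 7.57, 8.22, 6.61 and 8.92 CPM in the 5 DKO libraries. It read 5.9, 6.3, 4.39, 4.75 and 5.1 CPM in Glb1KO and 4.05, 4.23, 4.25, 2.51 and 3.31 CPM in Neu3KO. The DKO and Glb1KO libraries did not overlap with WT, and the lowest DKO library lay above the highest Glb1KO library. Oasl2 rose in DKO from 3.3 ± 1.02 to 7.95 ± 0.891 CPM (SD, n = 5), a log2 fold change of 1.27 (SE 0.18, 2.42-fold, edgeR adjusted p = 1.16e-06). Oas1a had the largest log2 fold change of the 39 genes, 1.81 (SE 0.33, 3.49-fold, edgeR adjusted p = 6.19e-05). Its mean was 0.497 CPM in WT and 1.76 CPM in DKO. Its transcript shares 57.6% of its 50-base windows with other genes, led by its copies Oas1g and Oas1b, so its level is uncertain. Oas2 had a log2 fold change of 0.66 (edgeR adjusted p = 0.118).

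Of the nucleic acid sensors, Eif2ak2 (PKR, the kinase that stops translation when it binds double-stranded RNA) had the smallest adjusted p. In WT, Eif2ak2 (ENSMUSG00000024079, chr17:78852564-78882573, GRCm38) was counted at 6, 7.08, 6.19, 9 and 7.53 CPM, and in DKO at 12.9, 14, 15.6, 13.4 and 14 CPM. Glb1KO libraries had 11.4, 10, 8.68, 6.41 and 11 CPM and Neu3KO libraries 5.45, 6.16, 8.31, 7.6 and 4.58 CPM. All DKO libraries lay above all others, Glb1KO replicates 3 and 4 lay within the WT range, and the other 3 Glb1KO libraries lay between 10 and 11.4 CPM. Eif2ak2 rose in DKO from 7.16 ± 1.2 to 14 ± 1.01 CPM (SD, n = 5), a log2 fold change of 0.97 (SE 0.15, 1.95-fold, edgeR adjusted p = 3.82e-06). Ddx58 (RIG-I) rose by a log2 of 0.79 and Ifih1 (MDA5) by 0.52, both cytosolic receptors of viral RNA, with edgeR adjusted p-values of 6.43e-05 and 0.00668. With the letter of the identifier as a term the Ifih1 call ended (log2 0.48, edgeR adjusted p = 0.0529). Dhx58 (LGP2), a further RIG-I-like receptor, had a log2 fold change of 0.37 and Zbp1, a sensor of Z-form nucleic acid, had 1.15, and neither passed the test (edgeR adjusted p = 0.187 and 0.0721).

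Among effectors, Bst2 (tetherin, which holds virus particles on the cell surface) and Ifitm3, a membrane protein that blocks virus entry, had the smallest p-values. The level of Bst2 (ENSMUSG00000046718, chr8:71534255-71537456, GRCm38) was 1.74, 3.27, 3.28, 3.16 and 2.83 CPM across WT and 8.37, 7.69, 7.5, 7.19 and 10.2 CPM across DKO. For Glb1KO the values were 3.33, 3.48, 4.44, 4.55 and 3.64 CPM, and for Neu3KO 2.41, 4.14, 1.95, 2.37 and 1.84 CPM. The lowest DKO library was above the highest of the other 15, and the Glb1KO libraries lay just above WT without overlap. Bst2 rose in DKO from 2.85 ± 0.65 to 8.2 ± 1.22 CPM (SD, n = 5), a log2 fold change of 1.53 (SE 0.19, 2.88-fold, edgeR adjusted p = 1.1e-07). Ifitm3 (ENSMUSG00000025492, chr7:141009586-141010770, GRCm38) read 6.06, 5.83, 6.61, 7.24 and 5.89 CPM in the 5 WT libraries and 13, 16, 12.8, 9.83 and 19.7 CPM in the 5 DKO libraries. It read 8.58, 6.96, 7.61, 6.93 and 4.91 CPM in Glb1KO and 5.49, 7.36, 6.49, 5.97 and 5.79 CPM in Neu3KO. DKO replicate 5 was highest and DKO replicate 4 lowest of the DKO group, and all 5 lay above the other 15 libraries. Ifitm3 rose in DKO from 6.32 ± 0.596 to 14.3 ± 3.75 CPM (SD, n = 5), a log2 fold change of 1.18 (SE 0.15, 2.26-fold, edgeR adjusted p = 1.63e-07). Rsad2 (viperin, which makes a chain-terminating nucleotide) rose by a log2 of 1.43 and Trim30a by 1.18, with edgeR adjusted p-values of 0.000266 and 5.43e-06. Cmpk2, a mitochondrial nucleotide kinase that lies 12.8 kb from Rsad2 on chromosome 12, and Samhd1, which breaks down deoxynucleotides, each had a log2 fold change of 0.15 and did not pass the test (edgeR adjusted p = 0.218 and 0.23).

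All 4 transcription factors rose in DKO against WT, with a median log2 fold change of 0.43, where the 6 effectors had 1.18. Stat2 and Irf9 are subunits of the complex that binds the ISRE, Irf7 drives interferon-alpha genes, and Irf1 binds related elements. In WT, Stat2 (ENSMUSG00000040033, chr10:128270559-128292849, GRCm38) was counted at 39.5, 32.6, 33.3, 35 and 38.1 CPM, and in DKO at 45.7, 44.1, 52.3, 52.5 and 42.8 CPM. Glb1KO libraries had 41.6, 41.9, 41.4, 40.9 and 43.5 CPM and Neu3KO libraries 30.6, 37.1, 38.7, 33.4 and 32 CPM. The 5 Glb1KO libraries lay above every WT library, and all DKO libraries did too, while the lowest of them, at 42.8 CPM, lay below the highest Glb1KO library, at 43.5 CPM. Stat2 rose in DKO from 35.7 ± 3.02 to 47.5 ± 4.61 CPM (SD, n = 5), a log2 fold change of 0.41 (SE 0.07, 1.33-fold, edgeR adjusted p = 5.8e-05). The level of Irf9 (ENSMUSG00000002325, chr14:55603571-55610030, GRCm38) was 16.3, 12.4, 12, 13.1 and 11.8 CPM across WT and 17.5, 20.6, 16.9, 19.5 and 14.9 CPM across DKO. For Glb1KO the values were 12.6, 13.4, 13.1, 14 and 12.8 CPM, and for Neu3KO 11.7, 12.8, 10.6, 14.8 and 12.2 CPM. WT replicate 1 stood apart within WT, and the lowest DKO library, at 14.9 CPM, lay below it. Irf9 rose in DKO from 13.1 ± 1.83 to 17.9 ± 2.24 CPM (SD, n = 5), a log2 fold change of 0.44 (SE 0.10, 1.36-fold, edgeR adjusted p = 0.00127). Irf7 rose by a log2 of 0.92 and Irf1 by 0.41 (edgeR adjusted p = 0.00551 and 0.0343). Both calls ended with the identifier letter as a term, at edgeR adjusted p-values of 0.0611 and 0.397, and the Irf1 call also ended on leaving out WT replicates 1, 2, 3 or 5 or DKO replicates 3 or 4, with p-values up to 0.157.

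Parp9 and its partner ubiquitin ligase Dtx3l act together in the interferon response, and Parp14 transfers ADP-ribose to proteins. The 3 genes are neighbours on chromosome 16, and the annotated Dtx3l and Parp9 overlap at their starts on opposite strands. Whether the authors' counting used strand is not given in the sources used here, so reads in the overlap cannot be told apart. Parp14 (ENSMUSG00000034422, chr16:35832874-35871544, GRCm38) read 4.37, 3.65, 4.88, 5.23 and 5.21 CPM in the 5 WT libraries and 8.43, 8.1, 8.44, 9.2 and 7.43 CPM in the 5 DKO libraries. It read 5.78, 5.52, 5.85, 6.09 and 6.44 CPM in Glb1KO and 3.97, 3.37, 4.83, 4.48 and 5.92 CPM in Neu3KO. All DKO libraries lay above the other 15, and all Glb1KO libraries above WT. Parp14 rose in DKO from 4.67 ± 0.668 to 8.32 ± 0.638 CPM (SD, n = 5), a log2 fold change of 0.83 (SE 0.14, 1.78-fold, edgeR adjusted p = 2.24e-05). In WT, Dtx3l (ENSMUSG00000049502, chr16:35926511-35939151, GRCm38) was counted at 6, 6.97, 6.19, 6.2 and 6.29 CPM, and in DKO at 7.41, 7.39, 8.49, 7.42 and 5.79 CPM. Glb1KO libraries had 6.31, 6.6, 6.68, 5.96 and 6.13 CPM and Neu3KO libraries 4.93, 5.67, 4.83, 6.31 and 4.71 CPM. DKO replicate 5 was below every WT library, and the other 4 DKO libraries were above them. Its mean was 6.33 ± 0.372 CPM in WT and 7.3 ± 0.967 CPM in DKO (SD, n = 5), and its log2 fold change of 0.20 (SE 0.13) did not pass the test (edgeR adjusted p = 0.238). Parp9 rose by a log2 of 1.01 (edgeR adjusted p = 8.66e-05), with the DKO libraries from 5 to 8.2 CPM above the other 15.

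The interferon-induced GTPases act on the vacuoles of intracellular pathogens, and all 4 rose in DKO against WT. The level of Irgm1 (ENSMUSG00000046879, chr11:48861968-48871683, GRCm38) was 5.9, 5.93, 8.88, 9.42 and 8.44 CPM across WT and 22, 18.9, 20.9, 17.9 and 19.9 CPM across DKO. For Glb1KO the values were 10.3, 10.6, 10.1, 8.91 and 10.3 CPM, and for Neu3KO 7.7, 6.54, 7.96, 8 and 7.06 CPM. The lowest DKO library, at 17.9 CPM, lay well above the highest of the other 15, at 10.6 CPM. Irgm1 rose in DKO from 7.71 ± 1.68 to 19.9 ± 1.59 CPM (SD, n = 5), a log2 fold change of 1.37 (SE 0.12, 2.59-fold, edgeR adjusted p = 1.99e-11). This was the smallest p-value of the 39 genes. Gbp2 (ENSMUSG00000028270, chr3:142620602-142638008, GRCm38) read 1.58, 4.08, 3.45, 3.04 and 3.23 CPM in the 5 WT libraries and 7.69, 8.87, 9.69, 6.96 and 9.87 CPM in the 5 DKO libraries. It read 4.03, 3.78, 3.51, 3.27 and 3 CPM in Glb1KO and 3.45, 3.37, 2.89, 4.14 and 2.35 CPM in Neu3KO. WT replicate 1 was the lowest of all 20 libraries, and the lowest DKO library still lay above the highest of the others. Gbp2 rose in DKO from 3.08 ± 0.925 to 8.62 ± 1.27 CPM (SD, n = 5), a log2 fold change of 1.49 (SE 0.18, 2.8-fold, edgeR adjusted p = 7.32e-08). Gbp3 rose by a log2 of 1.21 and Igtp (Irgm3) by 0.64, with edgeR adjusted p-values of 5.38e-07 and 0.0151. Among libraries whose identifiers start with E the Igtp call ended (log2 0.59, edgeR adjusted p = 0.122).

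The remaining 7 genes have less defined roles and split. Ifi27 encodes a mitochondrial membrane protein and Rtp4 a chaperone of G protein-coupled receptors. In WT, Ifi27 (ENSMUSG00000064215, chr12:103434211-103440239, GRCm38) was counted at 14, 19.4, 19.5, 19.5 and 21.5 CPM, and in DKO at 26.3, 23.3, 21.1, 19 and 25.7 CPM. Glb1KO libraries had 14.5, 21, 19.5, 22.3 and 22.1 CPM and Neu3KO libraries 20.9, 23.9, 19.3, 20.6 and 15.3 CPM. The groups overlap, and WT replicate 1, Glb1KO replicate 1 and Neu3KO replicate 5 were low. Its mean was 18.8 ± 2.81 CPM in WT and 23.1 ± 3.08 CPM in DKO (SD, n = 5), and its log2 fold change of 0.30 (SE 0.12) did not pass the test (edgeR adjusted p = 0.0687). The level of Rtp4 (ENSMUSG00000033355, chr16:23520291-23614222, GRCm38) was 1.42, 1.63, 1.19, 1.64 and 2.21 CPM across WT and 4.04, 2.43, 4.05, 2.47 and 4.62 CPM across DKO. For Glb1KO the values were 1.4, 3.24, 2.19, 1.03 and 1.85 CPM, and for Neu3KO 1.68, 1.59, 1.36, 1.42 and 1.34 CPM. All 5 DKO libraries lay above WT and Neu3KO, while Glb1KO replicate 2 reached the DKO range. Rtp4 rose in DKO from 1.62 ± 0.378 to 3.52 ± 1.01 CPM (SD, n = 5), a log2 fold change of 1.12 (SE 0.25, 2.17-fold, edgeR adjusted p = 0.000809). Ifi27l2a rose by a log2 of 1.33 (edgeR adjusted p = 0.00538), but its log2 fold change was 0.39 with the identifier letter as a term (edgeR adjusted p = 0.576). Ifi44 rose by a log2 of 1.25 (edgeR adjusted p = 0.0438) at 0.105 to 1.04 CPM, and that call ended on leaving out WT replicates 1, 3 or 5, Glb1KO replicate 5 or DKO replicates 1, 2, 3 or 5, with p-values up to 0.121. Ifi35, Xaf1 and Sp100 had log2 fold changes of 0.08, 0.01 and 0.46 and did not pass the test.

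**Figure D2:**
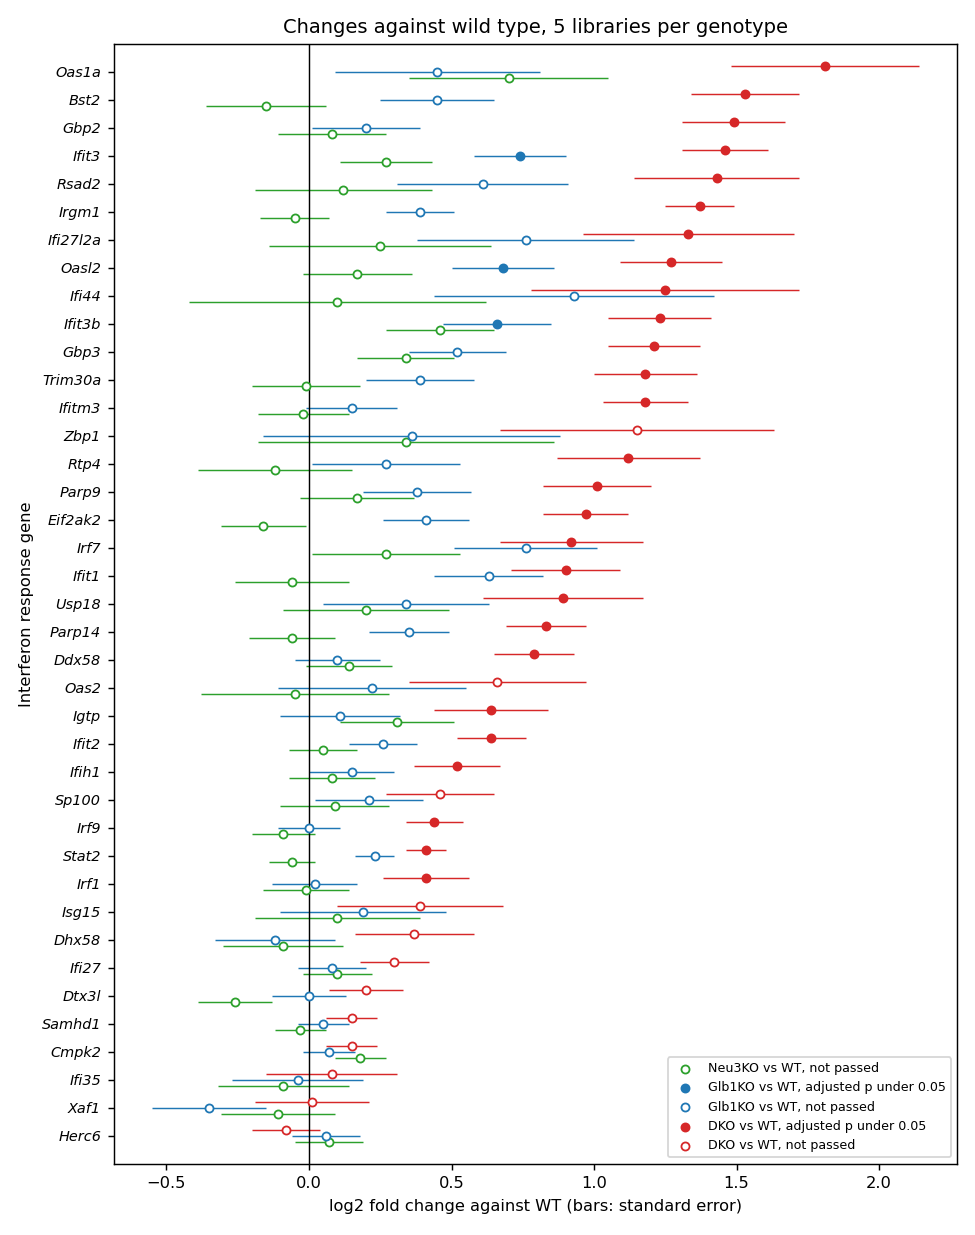
Log2 fold change against WT (horizontal axis, bars: standard error) of the 39 interferon response genes, ordered by the change in DKO. Points are filled where the edgeR adjusted p is under 0.05, and filled points number 27 for DKO, 3 for Glb1KO and none for Neu3KO.

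The authors' deposited table of DKO against WT lists all 39 genes. There, 25 of them pass in the authors' deposited table at an adjusted p under 0.05, all of which also passed here, and Irf1 and Ifi44 passed only here.

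In Glb1KO against WT, 3 of the 39 genes rose, namely Ifit3, Oasl2 and Ifit3b, and none fell, where 1.75% of all tested genes rose and 2.21% fell. Ifit3 rose by a log2 of 0.74 (SE 0.16, 1.67-fold, edgeR adjusted p = 0.00293), Oasl2 by 0.68 (SE 0.18, edgeR adjusted p = 0.0255) and Ifit3b by 0.66 (SE 0.19, edgeR adjusted p = 0.04). The values of Ifit3 and Oasl2 in each library are those given with their families. The median log2 fold change over the 39 genes was 0.26 (range -0.35 to 0.93), and 36 of the 39 values were above 0, while the median over all tested genes was 0.002. Every Glb1KO library lay above every WT library for 5 genes, Oasl2, Bst2, Stat2, Parp14 and Gbp3, against 2.6% of all tested genes. Next in order of p-value came Ifit1, with a log2 fold change of 0.63 (edgeR adjusted p = 0.0558), and Irgm1, with 0.39 (edgeR adjusted p = 0.0627). None of the 3 calls held with the identifier letter as a term, where Ifit3 had a log2 fold change of 0.68 and an edgeR adjusted p of 0.0805. Among libraries whose identifiers start with E, which leave 2 Glb1KO libraries, none of the 3 calls held either. These are not separate checks, since L occurs in Glb1KO alone and the letter term leaves its change to the same 2 libraries. Ifit3, Ifit3b and Oasl2 had log2 fold changes of 0.68, 0.62 and 0.58 with the letter term. Among the E libraries they had 0.68, 0.63 and 0.59. Leaving out 1 library gave between 1 and 5 called genes: 1 without WT replicate 2, Glb1KO replicate 1 or Glb1KO replicate 2, and 5 without Glb1KO replicate 4. Without WT replicate 1 the count was 2, and of the 3 genes only Ifit3 was among them. Ifit3 passed in all 20 of those fits. Oasl2 lost its call without WT replicates 1, 2 or 4 or Glb1KO replicates 1 or 2, with edgeR adjusted p-values up to 0.0978. Ifit3b lost it without WT replicates 1, 2 or 3 or Glb1KO replicates 1, 2, 3 or 5, with p-values up to 0.122.

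In Neu3KO against WT, none of the 39 genes passed the test with edgeR, as none of all tested genes did (0%). At an unadjusted p under 0.05 there were 2, Ifit3b with a log2 fold change of 0.46 and Dtx3l with -0.26, and DESeq2 also called none, nor did edgeR without WT replicate 1. The smallest edgeR adjusted p of the 39 was 0.772, and the median log2 fold change was 0.08. No gene had every Neu3KO library above every WT library, against 0.524% of all tested genes. Trim30a, which lies 4.58 Mb from Neu3 on chromosome 7, had a log2 fold change of -0.01.

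In DKO against Glb1KO, where both groups lack Glb1, 18 of the 39 genes rose and none fell, with 8.41% of all tested genes higher. The median log2 fold change over the 39 genes was 0.49, from -0.14 to 1.35, and the median over all tested genes was -0.005. Gbp2 rose by a log2 of 1.29 (SE 0.18, 2.45-fold, edgeR adjusted p = 1.79e-06), Bst2 by 1.07 (SE 0.19, edgeR adjusted p = 5.79e-05), Ifitm3 by 1.02 (SE 0.15, edgeR adjusted p = 3.79e-06) and Irgm1 by 0.99 (SE 0.11, edgeR adjusted p = 5.07e-08). Of the transcription factors, Irf9 rose by 0.44 (edgeR adjusted p = 0.00255), while Stat2, with 0.18, did not pass (edgeR adjusted p = 0.0927). Every DKO library lay above every Glb1KO library for 14 genes, against 6.78% of all tested genes. With the identifier letter as a term 8 of the 18 calls held and among libraries whose identifiers start with E 6 did. Those 6, Ddx58, Bst2, Ifitm3, Trim30a, Gbp2 and Irgm1, held under both. The settings are not separate checks, since L occurs in Glb1KO alone and both take the Glb1KO level from its E libraries. In the 20 fits that each left out 1 library 12 of the 18 calls held throughout, and those of Ifit2, Ifit3b, Oasl2, Rsad2, Parp9 and Rtp4 did not. Genotype and letter are partly confounded here, since no WT or DKO library carries L and no WT or Glb1KO library carries W.

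In DKO against Neu3KO, where both groups are labelled as Neu3 knockouts, 24 of the 39 genes rose and none fell, with 12.3% of all tested genes higher. The median log2 fold change was 0.71, against -0.005 over all tested genes, and Bst2 had the highest, 1.67 (SE 0.19, 3.19-fold, edgeR adjusted p = 2.21e-08). Every DKO library lay above every Neu3KO library for 17 of the 39 genes, against 8.43% of all tested genes. Dtx3l, which did not pass against WT, rose by a log2 of 0.47 against Neu3KO (edgeR adjusted p = 0.00588). In the fits that each left out 1 library 21 of the 24 calls held throughout, and those of Ifih1, Irf1 and Ifi27l2a did not. With the identifier letter as a term 25 genes passed, where 26.9% of all tested genes did, against 25.1% without it. Libraries whose identifiers start with E leave 1 Neu3KO library, so only log2 fold changes are given here. Over the 24 genes they ran from 0.42 for Ifih1 to 1.78 for Ifi27l2a, with 1.75 for Bst2.

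**Figure D3:**
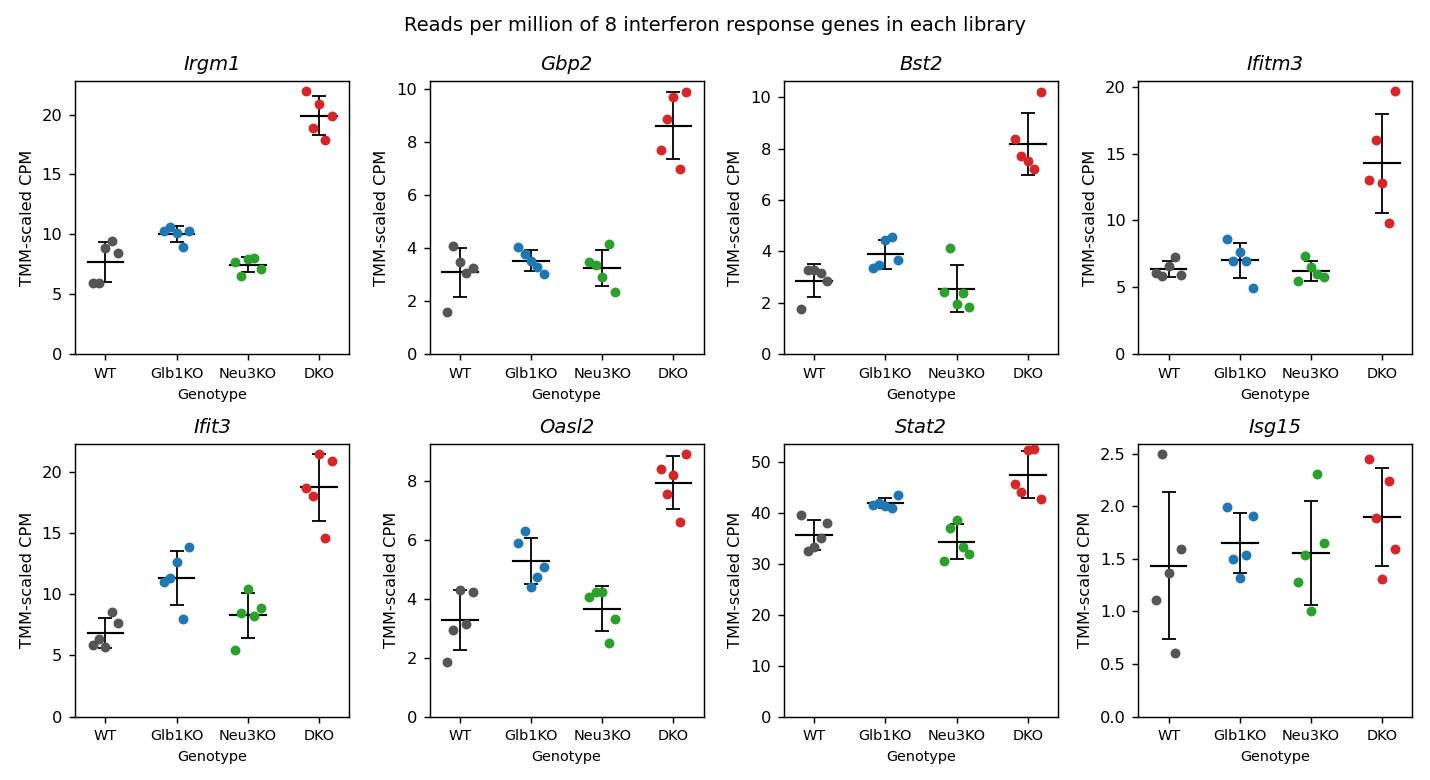
TMM-scaled CPM of 8 interferon response genes in each library, by genotype (points: 5 libraries, lines: mean, bars: SD). The DKO points of Irgm1, Gbp2, Bst2, Ifitm3, Ifit3 and Oasl2 lie above all other points, those of Stat2 lie above WT and Neu3KO, and those of Isg15 overlap with every genotype.

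The loss of Glb1 can be read in 2 backgrounds that share no library: by the labels with Neu3 intact (Glb1KO against WT) and with Neu3 knocked out (DKO against Neu3KO). The interaction term tests the difference of those log2 fold changes, which is also the difference between DKO against Glb1KO and Neu3KO against WT. It was above 0 for 36 of the 39 genes, with a median of 0.42, while 50.2% of all tested genes were above 0 and their median was 0.001. It passed the test for 6 genes, all higher, where 6.84% of all tested genes passed and 3.96% were higher. Irgm1 had an interaction of 1.03 (SE 0.17, edgeR adjusted p = 6.69e-05), Ifitm3 of 1.05 (SE 0.22, edgeR adjusted p = 0.0015) and Gbp2 of 1.21 (SE 0.26, edgeR adjusted p = 0.00262). Bst2 had 1.22 (SE 0.28, edgeR adjusted p = 0.00392), Irf9 of 0.53 (SE 0.15, edgeR adjusted p = 0.0248) and Eif2ak2 of 0.72 (SE 0.21, edgeR adjusted p = 0.0314).

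For Irgm1, for example, the log2 fold change with Glb1 loss was 0.39 (SE 0.12) in Glb1KO against WT and 1.42 (SE 0.12) in DKO against Neu3KO. For Ifit3, which rose in Glb1KO against WT, the corresponding values were 0.74 (SE 0.16) and 1.19 (SE 0.15), and its interaction of 0.45 did not pass the test (edgeR adjusted p = 0.253). Ifit3b and Oasl2, the other genes that rose in Glb1KO, had interactions of 0.11 and 0.42 (edgeR adjusted p = 0.885 and 0.414). With the letter of the identifier as a term 6.06% of all tested genes passed the interaction. It kept 5 of its 6 calls and lost Irf9, at an edgeR adjusted p of 0.113. Among libraries whose identifiers start with E it kept only Ifitm3, in a fit with 1 Neu3KO library, which is assumed to vary like the other groups. On leaving out 1 library the Eif2ak2 call ended in 8 of 20 fits, with p-values up to 0.0819, and the Irf9 call in 3 (WT replicate 1, Neu3KO replicate 3 or DKO replicate 4), with p-values up to 0.0578. Those 8 fits left out WT replicates 4 or 5, Glb1KO replicates 3 or 4, Neu3KO replicates 1, 2 or 5, or DKO replicate 3. Without WT replicate 1 the interaction passed for 5 genes.

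**Figure D4:**
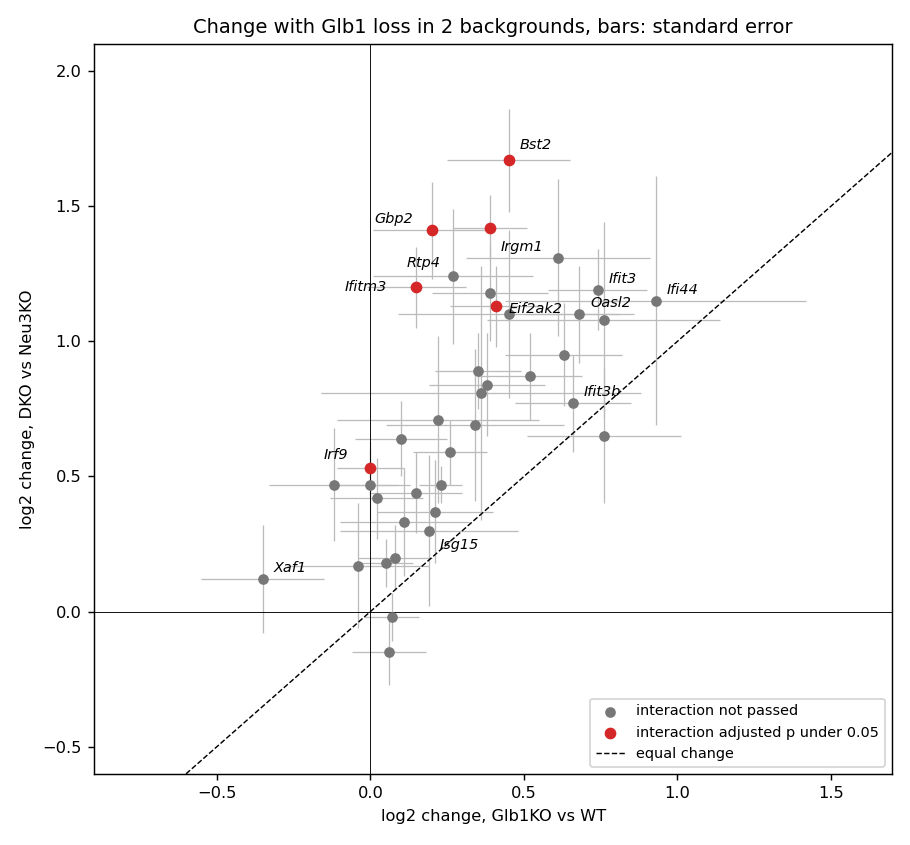
Log2 fold change with Glb1 loss for the 39 interferon response genes, in Glb1KO against WT (horizontal axis) and in DKO against Neu3KO (vertical axis), bars: standard error. Of the 39 points 36 lie above the dashed line of equal change, and the 6 red points passed the interaction test.

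The other genes of the pathway were read from lists kept apart from the 39. None of the 21 interferon genes had enough reads to be tested: Ifnb1 had 0 reads in all 20 libraries and Ifng 1 read. Which interferon, if any, acted on the 39 genes was not tested. Counting error alone allows up to 3 reads in a library where 0 were counted, which is 0.119 to 0.198 CPM per library. Some genes of these lists passed the filter on low counts only with the DKO libraries, as Zbp1 did. The filter favoured a rise in DKO for these genes, so they are set apart in the counts. Ifnlr1 was such a gene among the 9 receptors and kinases tested. Of the other 8, 3 rose and 1 fell in DKO against WT, where 14% of all tested genes rose and 15.1% fell. Il10rb, a subunit shared by the interferon-lambda and interleukin-10 receptors, rose from 3.51 ± 0.749 to 8.51 ± 0.629 CPM (SD, n = 5, edgeR adjusted p = 6.9e-08). Ifnar2 rose by a log2 of 0.34 (edgeR adjusted p = 0.012), Ifngr1, a receptor of interferon-gamma, by 0.37 (edgeR adjusted p = 0.000819). Ifnar1 had 0.01 (edgeR adjusted p = 0.943), and Jak1 fell by 0.18 on the log2 scale (edgeR adjusted p = 0.0032).

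Of 10 other transcription factors that could be tested Sp140 passed the filter only with the DKO libraries. Of the other 9, 5 rose and 1 fell, against 14% and 15.1% of all tested genes. Stat3, which also carries interleukin-6 signals, rose by a log2 of 0.97 (edgeR adjusted p = 5.31e-14) and Irf8, a factor of microglia and other myeloid cells, by 1.60 (edgeR adjusted p = 1.33e-10). Irf3, which starts interferon transcription, fell by 0.42 on the log2 scale (edgeR adjusted p = 0.00165). Of 18 tested genes of nucleic acid sensing upstream of interferon Ifi204 passed the filter in that way, and of the other 17, 8 rose and 2 fell. Tlr7, the endosomal receptor of single-stranded RNA, rose by a log2 of 2.47 (edgeR adjusted p = 9.78e-11) and its trafficking partner Unc93b1 from 10.8 ± 0.48 to 24.8 ± 3.52 CPM (SD, n = 5, edgeR adjusted p = 1.93e-11). Adar, which edits double-stranded RNA, fell by 0.36 on the log2 scale (edgeR adjusted p = 4.78e-06), and Traf3, an adaptor of the pathway, by 0.39 (edgeR adjusted p = 0.000103).

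Of 7 negative regulators 2 rose, where 14% of all tested genes rose and 15.1% fell in DKO against WT. The 2 were the phosphatase Ptpn6, with a log2 of 2.17, and Socs3, with 1.48 (edgeR adjusted p = 9.07e-13 and 8.34e-05). Socs1, with -0.37, did not pass (edgeR adjusted p = 0.349). Of 44 other interferon-stimulated genes tested Ifi207 and Ccl2 passed the filter only with the DKO libraries, and of the other 42, 25 rose and 1, Helz2, fell. Lgals3bp rose from 15.1 ± 3.32 to 112 ± 5.48 CPM (SD, n = 5, edgeR adjusted p = 8.99e-21), and Mx1, a GTPase that traps viral particles, by a log2 of 1.64 (edgeR adjusted p = 0.00558). Of 11 other interferon-induced GTPases 6 rose and 1 fell: Gbp6 rose by a log2 of 2.28 (edgeR adjusted p = 3.73e-08), Gbp5 by 1.57 (edgeR adjusted p = 1.92e-06), and Gbp4 fell by 0.79 on the log2 scale (edgeR adjusted p = 0.0225). In Glb1KO against WT 4 of the 44 other interferon-stimulated genes rose, against 1.75% of all tested genes. They were Lgals3bp, with a log2 of 1.03 (edgeR adjusted p = 9.34e-09), Ifi207, Trim25 and Lgals9. Irf3, Traf3, Helz2, Gbp4, Socs1, Ifngr1, Ifnlr1, Sp140, Ifi204, Ccl2, Ifi207, Trim25 and Lgals9 were chosen for naming after their values were seen.

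**Figure D5:**
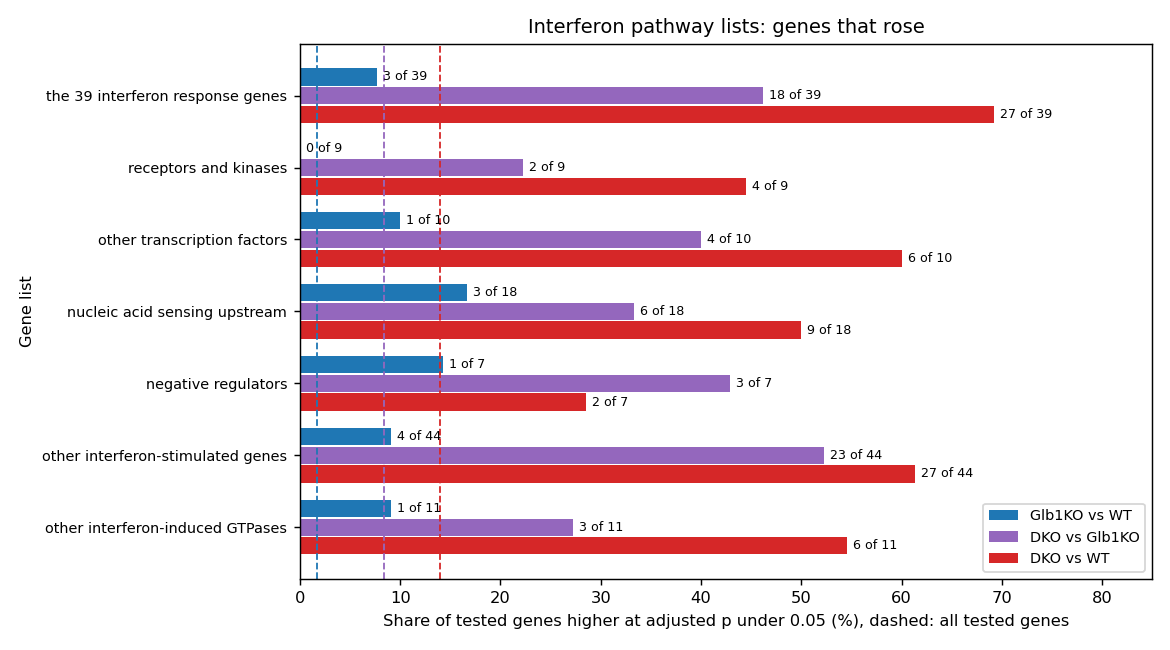
Share of tested genes that rose at an edgeR adjusted p under 0.05 in 3 comparisons, for the 39 interferon response genes and 6 other lists of the pathway. Dashed lines mark the share over all tested genes (1.75% in Glb1KO against WT, 8.41% in DKO against Glb1KO, 14% in DKO against WT), against 27 of 39 for the interferon response genes in DKO against WT. The bars include Zbp1, Ifnlr1, Sp140, Ifi204, Ifi207 and Ccl2, which passed the filter only with the DKO libraries.

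Markers of several cell types moved with the genotypes in the same libraries. Over all tested genes 14% rose and 15.1% fell in DKO against WT. The summed level of 12 markers of activated microglia ran from 99.1 to 129 CPM in WT, 183 to 223 in Glb1KO, 112 to 131 in Neu3KO and 823 to 952 in DKO, and all 12 rose in DKO against WT. For 12 markers of homeostatic microglia the sums were 268 to 321, 353 to 377, 301 to 347 and 466 to 626 CPM in the same order, and 7 of the 12 rose. For 10 markers of reactive astrocytes they were 254 to 326, 508 to 694, 261 to 315 and 4339 to 5143 CPM, and all 10 rose, of which Lcn2 and Steap4 passed the filter on low counts only with the DKO libraries. Border macrophage markers (8 genes) summed to 19.4 to 26.9 CPM in WT and 49.6 to 63.9 in DKO, and 6 of the 8 rose, among them 1 of 2 that passed the filter in that way (Pf4 and Ms4a7). The median log2 fold change in DKO against WT was 0.89 for the 39 interferon response genes, 0.67 for homeostatic microglia and 3.66 for activated microglia markers. The part of these cell types in the result was not tested.

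Markers of blood-borne cells were at low levels. The 10 T cell markers summed to 9.97 to 13 CPM in WT and 10.6 to 14 CPM in DKO, and none of the 4 that could be tested passed. Cd3d and Cd3g had no reads in WT and Cd2 none in DKO. The 6 NK cell markers summed to at most 0.741 CPM in any library, and the 6 B cell markers to 1.67 to 3 CPM in WT and 2.07 to 3.16 CPM in DKO. The 8 monocyte and neutrophil markers summed to 0.79 to 1.49 CPM in WT and 1.15 to 5.07 CPM in DKO, where Ly6g had reads in the DKO group only. The 2 that could be tested, S100a8 and S100a9, both rose in DKO against WT, by a log2 of 3.27 and 1.88 (edgeR adjusted p = 0.00023 and 0.0198), and both also rose against Neu3KO. They passed the filter only with the DKO libraries, so the filter favoured a rise in them. The part of monocytes and neutrophils in the result was not tested. The tissue label matched its markers, with 8 neuron markers at 5332 to 6578 CPM over the 20 libraries. The 8 oligodendrocyte markers summed to 5447 to 6206 CPM in WT, 3471 to 3952 in Glb1KO, 5510 to 6256 in Neu3KO and 3528 to 4661 CPM in DKO, and all 8 fell in DKO against WT.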

How the data were processed

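RNA-seq of mouse brain hemispheres gave 20 libraries, 5 for each of 4 genotypes, grouped by GEO's titles. The deposited file of counts holds raw read counts per gene, per the file headers, and the deposited FPKM values were normalised by the authors for gene length and depth. The authors' deposited table of DKO against WT gives log2 fold changes and adjusted p-values, per the file headers. Per the submitters' processing notes the tools were DESeq2 1.20.0, featureCounts 1.5.0-p3, HISAT2 2.0.5 and fastp, and the builds GRCm38 or mm10, with no roles, strand setting or annotation release. Unassigned or multiply mapped reads, and reads on either strand, may therefore have been treated in ways that move genes with close copies.

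Counts were fitted here with edgeR 4.0.16 (R 4.3.3): TMM scaling, filterByExpr by genotype, a mean per genotype over all 20 libraries, a robust quasi-likelihood fit, and Benjamini-Hochberg adjustment over 18336 genes at 0.05. The 6 comparisons were each knockout against WT, DKO against each single knockout, and the interaction. CPM are TMM-scaled, FPKM were used only to compare levels between genes, and log2 library averages used a pseudocount of 0.5 CPM. The fit was tested on simulated counts. Alternatives were DESeq2 1.42.0 and its size factors, other filters, the compared groups alone, the replicate number as a block, the identifier letter as a term or its E libraries alone, and each library left out. Depth was 15162311 to 25145806 counts per library, and the limit given for a count of 0 covers counting error only. Promoter windows are RefSeq's, and shared 50-base windows come from GENCODE M21 transcripts (GRCm38). Gene positions are those deposited with the counts.

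The 39 genes, the pathway and marker lists and the tests were chosen with earlier results of these data known. Values in every library are given, for each role, for the gene with the smallest adjusted p in DKO against WT and the gene with the highest mean FPKM, plus up to 5 genes with a call in the interaction. Of other pathway lists, up to 3 genes with the smallest adjusted p, the gene with the highest FPKM and a few named receptors, factors and ligands were open to naming.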

Additional observations from a re-analysis of the deposited data

Results flagged for a closer look

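In 60 groups of 5 libraries (the 15 genes given library by library, in 4 genotypes), 3 held a library far from the others, where chance alone gives about 1 in 20 such groups. Bst2 was at 4.14 CPM in Neu3KO replicate 2, above the 1.84 to 2.41 CPM of the other 4 Neu3KO libraries. Irf9 was at 16.3 CPM in WT replicate 1, above the 11.8 to 13.1 CPM of the other WT libraries, and Ifi27 was at 14 CPM in the same library, below the 19.4 to 21.5 CPM of the others. WT replicate 1 stood apart over all genes. Leaving it out ended the interaction call of Irf9, and WT replicate 1 was also the lowest WT library in 14 of the 27 genes that rose in DKO.

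The change with Glb1 loss differed between Glb1KO against WT and DKO against Neu3KO for 6 genes by the interaction test (edgeR quasi-likelihood, adjusted over all genes). The difference in log2 fold change was 1.03 for Irgm1, 1.05 for Ifitm3, 1.21 for Gbp2, 1.22 for Bst2, 0.53 for Irf9 and 0.72 for Eif2ak2. All 6 were larger in DKO against Neu3KO.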

How the results depend on the processing

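The count of interferon response genes called in DKO against WT, 27, was 22 to 28 under the 8 alternatives other than leaving out a library, and 25 to 28 on leaving out 1 library. No called value changed its sign under any alternative run, and 136 of 4417 uncalled values did. With DESeq2, 5.16% of all tested genes passed in Glb1KO against WT. In Glb1KO against WT the 3 calls became 5 with no filter, 6 with DESeq2, 0 with the identifier letter as a term and 0 among E libraries, and 1 to 5 on leaving out 1 library. In DKO against Glb1KO the 18 calls became 8 with the letter as a term and 6 among E libraries, and 15 to 18 on leaving out 1 library. In DKO against Neu3KO 24 became 14 among E libraries, and 21 to 26 on leaving out 1 library. The 6 interaction calls became 1 among E libraries and 5 to 8 on leaving out 1 library, and Neu3KO against WT stayed at 0 throughout. E libraries alone are 10 of the 20 libraries, with 1 Neu3KO library, and the cause of the other changes was not tested.

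The share of all tested genes called in DKO against WT, 29%, was 14.2% with no filter (more genes tested), 18.3% with the letter as a term and 12.9% among E libraries. In Glb1KO against WT 3.96% became 2.63%, 1.72% and 1.61%, in DKO against Glb1KO 15.7% became 7.95%, 6.56% and 4.48%, in DKO against Neu3KO 25.1% became 12.3% with no filter and 4.39% among E libraries, and the interaction's 6.84% became 4.01% and 0.911%. With the replicate number as a block 27, 2, 0, 18, 25 and 5 genes were called in the order of the report's 6 comparisons. It ended the calls of Ifit3b in Glb1KO against WT and of Eif2ak2 in the interaction. Libraries with the same number did not deviate together (correlations of -0.129 to 0.065 over 30 pairs, none over 0.1), and 2 of 20 libraries correlated best with their own number. A filter at a mean of 1 CPM left 34 of the 39 genes and 24 calls in DKO against WT. Genes near that level, such as Ifi44, Zbp1 and Oas2, rest on few reads.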
